A study of Mus musculus with 8 samples.

Results

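The cytosolic ribosomal protein genes are the genes whose symbol is Rpl or Rps followed by a digit, with Rplp0, Rplp1, Rplp2 and Rpsa added and the Rps6k kinases left out. The rule took 84 of the 11364 genes of the gene tables, and 17 of the 5551 occupied sites had such a gene as their closest transcription start site (TSS). Rpl13a, the closest gene of 1 of these sites, fits the rule by name but is not among the 84, so no RNA level is given for it. The study compared wild type KLF1 with the CDA type IV mutant E339K of this erythroid zinc finger transcription factor, each fused to an estrogen receptor domain (KLF1-ER and KLF1-E339K-ER) that moves the protein into the nucleus when 4-OHT is given. The parent K1 line is an immortalised erythroid line from Klf1-null mouse fetal liver with no transgene, and K1-E339K-ER cells, called K1-CDA-ER in the labels, are K1 cells that carry the mutant fusion in a retroviral vector. 4sU-RNA-seq, which reads newly made RNA, was performed on 3 K1 and 3 K1-CDA-ER libraries after 200 nM 4-OHT and 30 min of labelling with 500 µM 4sU by the labels, where 1 K1 library carries an ethanol label. The 3 K1-CDA-ER libraries are 3 clones, and 1 ChIP and 1 input library, each built from 3 pooled replicates, have 1 of these clones named as their source and followed 3 h of induction. Transgenic cells were sorted for GFP, and ChIP used an antibody to the estrogen receptor part of the fusion. Values for wild type KLF1-ER stem from earlier K1-ER libraries, which enter here through the authors' means alone. All groups lack endogenous Klf1, so the wild type state is a transgene in a null line and not a normal erythroblast.

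Ribosomal proteins pack around the ribosomal RNA of the small and the large subunit, and a growing cell makes them in near-equal numbers. Their genes are short, highly transcribed and spread over the genome, many hold a snoRNA gene in an intron, and their mRNAs begin with a run of pyrimidines that couples translation to growth signals. Red cell precursors depend on them: loss of a single copy of several of these genes causes Diamond-Blackfan anaemia, a failure of red cell production.

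Every RNA level below is a mean the authors deposited over libraries, with no value per library, and the KLF1-E339K-ER concentrations rest on the 1 ChIP library. No error between replicates can therefore be given, depth is unknown, and no change of a gene between K1 and K1-CDA-ER cells is reported here. All 12 erythroid markers looked for were listed in the gene table, Klf1 itself at 6.84 log2 CPM, a mean that includes lines with a KLF1 transgene and so checks no label. Of the markers of other cell types, 1 of 4 for megakaryocytes (Itga2b, 5.30) and 2 of 5 for myeloid cells (Mpo, 1.84, and Elane, 0.77) were listed. None of the 4 T cell, 3 B cell and 4 hepatocyte markers was listed.

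Occupancy at the ribosomal protein genes was sparse. A site within 10 kb of the TSS was listed for 9 of the 84 genes (10.7%, 95% Wilson interval 5.74 to 19.1), against 21.2% of all 11364 genes. A low share was not particular to these genes. It was 6.58% of 76 mitochondrial ribosomal protein genes, 10.4% of 48 ribosome biogenesis genes and 5.56% of 18 translation factor genes. A site within 1 kb was listed for 6 of the 84 genes (7.14%), against 15.7% of all genes. Rpl31, Rps23, Rps19, Rps20 and Rplp2 were among them. These intervals cover counting error only. The 9 genes with a site within 10 kb had a median level of 5.96 log2 CPM per kb (4.65 to 7.03), and the 75 without one a median of 5.22 (0.88 to 7.05), so the ranges overlapped.

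The central bases of the sites near the starts of these named genes are shown because the values of the 2 proteins were at least 2-fold apart at each of them. Sequences are from NCBIM37 (mm9), plus strand, and span 50 bp on either side of the site's midpoint. Capitals mark the 8-base KLF1 words that were searched on both strands, the pyrimidine form (GGGCGGGG, GGGCGTGG, GGGTGGGG or GGGTGTGG) ascribed to wild type KLF1 and the purine form (GGGAGGGG, GGGAGTGG, GGGGGGGG or GGGGGTGG) ascribed to the mutant.
Rpl31 site, chr1:39424548-39424648: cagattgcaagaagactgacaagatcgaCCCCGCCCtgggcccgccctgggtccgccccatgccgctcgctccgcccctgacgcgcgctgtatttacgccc
Rps23 site, chr13:91062392-91062492: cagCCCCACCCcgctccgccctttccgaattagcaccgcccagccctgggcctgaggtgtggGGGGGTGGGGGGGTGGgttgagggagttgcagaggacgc
Rps19 site, chr7:25669459-25669559: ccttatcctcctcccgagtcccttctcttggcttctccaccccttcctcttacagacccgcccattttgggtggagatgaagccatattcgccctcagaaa
Rps20 site, chr4:3762803-3762903: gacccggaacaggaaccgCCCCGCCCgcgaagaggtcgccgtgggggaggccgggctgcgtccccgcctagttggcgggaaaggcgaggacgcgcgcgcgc
Rplp2 site, chr7:148633453-148633553: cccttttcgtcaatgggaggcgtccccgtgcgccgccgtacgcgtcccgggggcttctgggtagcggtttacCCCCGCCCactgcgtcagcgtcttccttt

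At 4 of the 6 sites within 1 kb KLF1-ER had the higher concentration, the log2 of the mean normalized read count. Rpl31, a protein of the large subunit near the exit of the peptide tunnel, had the highest. Its site (chr1:39424428-39424769) lay 98 bp upstream of the closest Rpl31 start in GENCODE M1 and was listed at 7.42 for KLF1-ER and 2.38 for KLF1-E339K-ER, a difference of -5.04, mutant minus wild type. The wild type value ranked 41 among the 5551 sites. One pyrimidine word, GGGCGGGG, lay there, and no purine word.

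Rps23, a protein of the decoding centre, had a site 285 bp upstream of its start (chr13:91062277-91062608) at 6.17 for KLF1-ER and 2.13 for KLF1-E339K-ER. It held 2 matches of each form, and 1 of the pyrimidine matches overlapped the purine ones. The site at Rps19 (chr7:25669348-25669671) lay in an annotated exon of the gene, 119 bp downstream of the closest start, and was listed at 5.04 and 1.97. It held neither form. Rps19 is the gene most often mutated in Diamond-Blackfan anaemia.

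The other 2 sites near a start went the opposite way. Rps20, a small subunit protein, had a site 41 bp upstream (chr4:3762700-3763006) at 1.72 for KLF1-ER and 5.76 for KLF1-E339K-ER. Rplp2, an acidic protein of the stalk that recruits translation factors, had a site 27 bp upstream of the closest start (chr7:148633348-148633658), in an exon of another Rplp2 transcript, at 2.08 and 4.56. Both held the pyrimidine word GGGCGGGG and no purine word.

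A further 11 sites lay more than 1 kb from the TSS given in the site table, and KLF1-E339K-ER had the higher concentration at 9 of them. A pair of them lay upstream of Rpl29, and Rplp0 had the largest difference, so these are shown with the same marking.
Rpl29 nearer upstream site, chr9:106323062-106323162: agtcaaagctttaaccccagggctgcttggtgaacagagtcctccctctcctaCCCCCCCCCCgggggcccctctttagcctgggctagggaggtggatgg
Rpl29 farther upstream site, chr9:106320648-106320748: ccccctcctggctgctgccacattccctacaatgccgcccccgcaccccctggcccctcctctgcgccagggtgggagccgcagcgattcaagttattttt
Rplp0 site, chr5:115993975-115994075: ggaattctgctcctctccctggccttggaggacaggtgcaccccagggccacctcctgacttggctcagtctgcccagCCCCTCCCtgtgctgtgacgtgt

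The 2 sites upstream of Rpl29, a large subunit protein, lay 8673 and 11087 bp from its start. The nearer one (chr9:106322956-106323269) was listed at 2.23 for KLF1-ER and 6.56 for KLF1-E339K-ER, and the farther one (chr9:106320540-106320857) at 0.50 and 6.13. Purine words, GGGGGGGG on the minus strand in a run of cytosines, were found at the nearer site and not at the farther one.

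Some of the distant sites lay at the start of another gene. The Rplp0 site (chr5:115993810-115994240) was 15451 bp upstream of Rplp0, the scaffold of the stalk, and 69 bp from a start of Pxn. Its wild type value of -0.09 was the lowest any site had, a value shared by 1424 of the 5551 sites (25.7%). The mutant value was 6.66, so the difference of 6.75 is a lower bound. The Rpl13a site (chr7:52387374-52387694, -0.09 and 5.89), at the same lowest wild type value, was 443 bp from a start of Flt3l. Both held the purine word GGGAGGGG. Both Rps13 sites lay in introns of Plekha7 and had opposite directions, 4.89 for KLF1-ER and 1.08 for KLF1-E339K-ER at chr7:123430274-123430586, and 1.23 and 5.21 at chr7:123438662-123438978.

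The sites at Rpl18, Rpl14 and, farther away, Rps23 were all higher for the mutant. The Rpl18 site (chr7:52974636-52974950, -0.09 and 4.74) also had the lowest wild type value, so its difference is a lower bound too. It is 1352 bp from the TSS in the site table, but 161 bp downstream of another Rpl18 start in GENCODE M1, in an intron. The Rpl14 site (chr9:120478079-120478390, 2.82 and 5.47) was 2398 bp upstream. The second Rps23 site (chr13:91102740-91103049, 1.5 and 5.02) was 40116 bp downstream, in an intron of Atg10, and held both forms. In GENCODE M1 the closest protein-coding start was that of the named gene at 12 of the 17 sites, against 81.3% of all sites.

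**Figure D1:**
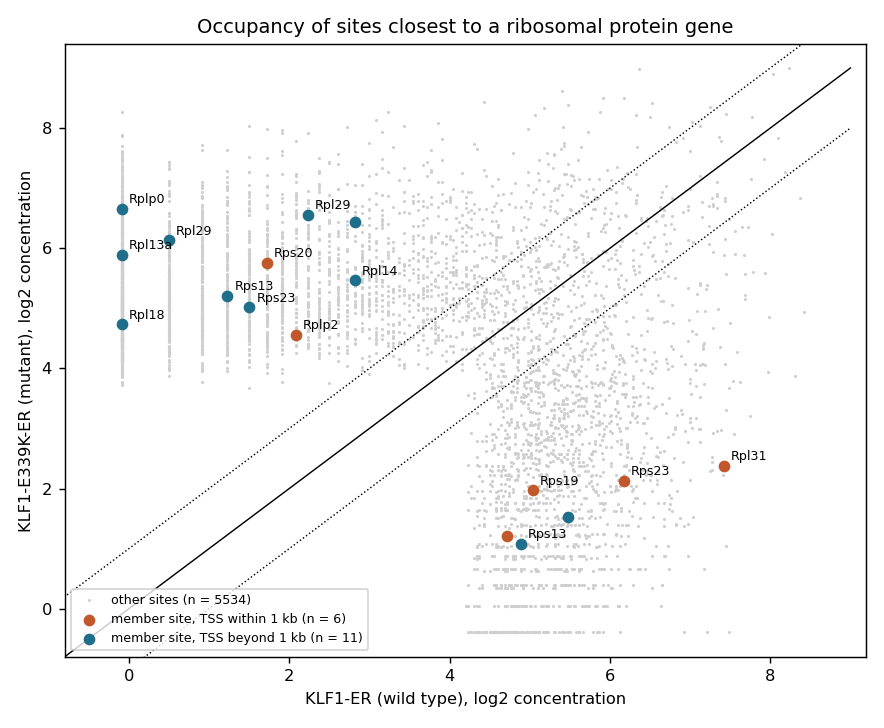
Log2 concentration of each consensus site for KLF1-ER (x axis) and KLF1-E339K-ER (y axis), with grey points for all other sites, orange for the 6 sites within 1 kb of a ribosomal protein TSS and blue for the 11 farther ones, with names at the sites described in the text. The solid line marks equal values and the dotted lines a 2-fold difference; all 17 sites lie outside the dotted lines, 11 towards the mutant and 6 towards the wild type.

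Over the 17 sites, the mutant value was at least 2-fold higher at 11 (64.7%, 95% Wilson interval 41.3 to 82.7), and the background over all 5551 sites was 61.5%. The wild type value was at least 2-fold higher at 6 (35.3%, 17.3 to 58.7), with a background of 28.7%. Both shares were thus near those of all sites. Within 1 kb of a TSS the wild type value was higher at 4 of 6 sites and the mutant value at 2 of 6, where the shares over the 2190 sites of that kind were 31% and 57.5%. With 6 sites the intervals are wide (30 to 90.3% for the 4, and 9.68 to 70% for the 2) and hold both of these shares.

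The purine form lay within 50 bp of the midpoint at 6 of the 17 sites, against 35.7% of all sites, and the pyrimidine form at 7 of 17, against 35.4%. Among the 11 sites that favoured the mutant, 5 held the purine form and 4 the pyrimidine form. Over all 3414 such sites the shares were 45.9% and 22.9%. Among the 6 that favoured the wild type, 1 held the purine form and 3 the pyrimidine form, where all 1591 such sites gave 16% and 60.9%. Near a start, 5 of the 6 sites held the pyrimidine form, against 37.4% of all sites within 1 kb. A match is a description of the letters and not of a contact.

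The nascent RNA level of the ribosomal protein genes was high per kb. Levels were compared between genes per kb of the length deposited for each gene, which spans introns, as log2 CPM per kb. This division gives a shorter gene a higher value for the same log2 CPM. Across all 11364 genes, log2 CPM and deposited length had a Spearman's rho of 0.299. The members were not compared with genes of like length, so the part of their short length was not tested. The median was 5.31 over the 84 genes (quartiles 4.49 and 6.09) and 0.82 over all 11364 genes (quartiles -0.87 and 2.26). All 84 genes were at or above the all-gene median, where the background is 50% by definition, and 65 of 84 (77.4%, 67.4 to 85) were at or above the 95th percentile, where the background is 5.01%. Without the length, as log2 CPM, the median was 6.99 against 5.27, and 7 of the 84 genes (8.33%) reached the 95th percentile. Per kb of merged exons, 50 of the 83 genes placed on GENCODE M1 (60.2%) reached it. These levels are means over the K1, K1-ER and K1-E339K-ER libraries of the authors' fit and hold no difference between the lines. In bulk RNA, more cells that express a gene and more RNA per cell cannot be told apart.

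**Figure D2:**
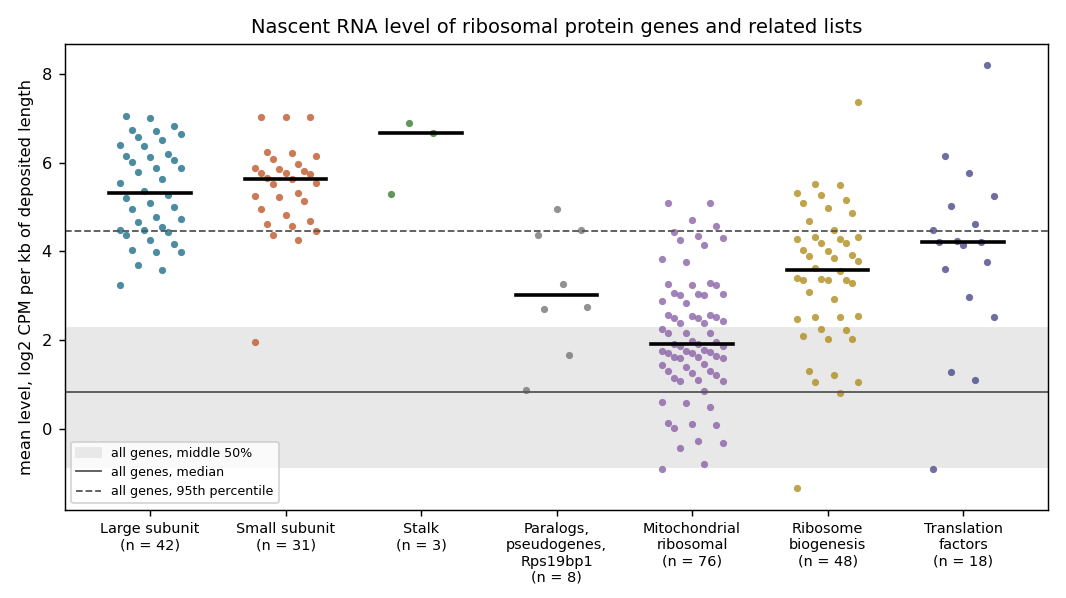
Mean level of each gene in log2 CPM per kb of deposited length, by class (points are genes, black bars class medians). The grey band runs from the lower to the upper quartile of all 11364 genes, the solid line their median and the dashed line their 95th percentile; the 3 classes of structural proteins lie mostly above the dashed line, with Rps29 at 1.95 far below its class.

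The 42 large subunit proteins had a median of 5.31 per kb and the 31 small subunit proteins one of 5.62, with overlapping quartiles (4.48 to 6.18 and 4.89 to 5.92). The highest values per kb were close together. Rpl3, which lies near the peptidyl transferase centre, was listed at 7.05, Rps2 and Rpsa at 7.04 and Rpl13 at 7.0 log2 CPM per kb. Rpsa, a small subunit protein also known as a laminin receptor, ranked second of the 84 by log2 CPM (9.24), after Rpl3 (9.54). Rplp0 (8.99), Rpl4 (8.94) and Rpl13 (8.53) followed.

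The stalk proteins were at 6.90 (Rplp0), 6.68 (Rplp1) and 5.29 (Rplp2) log2 CPM per kb. Rplp1 and Rplp2 bind Rplp0 as a pair, and their order turned with the scale: as log2 CPM Rplp2 (7.18) was above Rplp1 (6.97). Per kb of merged exons Rplp1 was at 7.99 and Rplp2 at 6.13.

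Rps29 and Rpl41 had the lowest levels of the structural genes. Rps29 was listed at 2.50 log2 CPM and 1.95 per kb, and Rpl41, whose protein is among the smallest known, at 3.33 and 3.25. Rpl24, at 3.58 per kb, and Rpl26, at 3.70, came next among the structural proteins. Across the 75 structural genes with a coding sequence in GENCODE M1, log2 CPM rose with coding length in rank (Spearman's rho 0.697, a description across genes that share libraries, with no test). The part of coding length in the order of levels was not tested.

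The 8 genes of the rule that are not among the structural names looked for all lay below the median of the 76 structural genes, 5.54 log2 CPM per kb. The paralogs Rpl22l1 (4.96 per kb), Rpl36al (4.49), Rpl7l1 (3.26) and Rps27l (2.75) were each set beside the gene they copy. Rpl22 was at 5.10 per kb, and as log2 CPM it was at 8.13 against 5.89 for Rpl22l1, while per kb of exon it was at 6.59 against 6.93. Rpl36a was at 3.98 per kb, below its paralog, but as log2 CPM it was at 5.25 against 4.90 for Rpl36al, and per kb of exon at 4.52 against 4.47. Rpl7 was at 4.72 per kb, above its paralog, while the 2 differed little as log2 CPM (6.37, and 6.39 for Rpl7l1) and per kb of exon (4.94 and 5.01). Rps27 was at 4.62 per kb, above the p53 target Rps27l, with 4.59 and 4.51 as log2 CPM and 6.13 and 4.8 per kb of exon. Of these 4 pairs, only Rps27 and Rps27l kept their order on all 3 scales. The other gene table names the Rps27 row Rps27rt, so the identity of that row is uncertain. Rps19bp1, which binds Rps19 and a deacetylase and is no part of the ribosome, was at 2.70.

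The pseudogenes Rps19-ps3 and Rps15a-ps4 had the lowest levels of the 84, 0.42 and 0.36 log2 CPM, and also the lowest per kb, 1.65 and 0.88. The third, Rpl34-ps1, was listed at 6.16, and its level differed from that of Rpl34 by 7.7e-05 on the log2 scale and its length by 15 bp. Its symbol is placed on chromosome 6 in GENCODE M1 with a span of 412 bp, against a deposited length of 3493 bp, so the 2 rows cannot be told apart as separate genes. The symbols of 9 further members are uncertain, since the other gene table gives the same row another symbol. Among them are Rpl35 (Rpl35a there), Rpl23 (Mrpl23) and Rps27 (Rps27rt). The deposited length was closer to the symbol used here for 5 of the 7 with both loci in GENCODE M1. It was closer to the other symbol for Rpl35 (off by 126 against 88 bp) and for Rps27a.

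The 14 genes fixed as known for Diamond-Blackfan anaemia had their lowest level, 1.95 log2 CPM per kb, at Rps29. Of these 14, 3 were at or above the median of the 76 structural genes (21.4%, 7.57 to 47.6), where the background is 50% by definition. Among these were Rpl11 (5.78), whose protein binds Mdm2 when ribosome assembly fails, and Rps19 (5.76). Rpl5 (5.00), the partner of Rpl11 in that complex, Rps7 (4.95) and Rps10 (4.83) lay below it. Rpl31 (4.65), Rps24 (4.45) and Rpl35a (4.44) were lower again, ahead of Rps28 (4.37), Rps26 (4.26), Rpl15 (4.26) and Rpl26 (3.70). Without the length, 5 of the 14 were at or above that median in log2 CPM. Rps19 and Rpl31 were among those with a site within 1 kb.

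Genes that act with the ribosomal proteins spread more widely per kb. Gnb2l1 (Rack1, a scaffold on the small subunit) was at 5.76 log2 CPM per kb and Fau (a ubiquitin-like fusion to a ribosomal protein) at 3.61. Of the 51 ribosome biogenesis genes looked for, 48 were listed, with a median of 3.58, and 11 of 48 (22.9%) reached the all-gene 95th percentile. Nop56, of the box C/D snoRNP, was highest at 7.37. Of the 19 names of translation factors and related proteins with a pyrimidine tract, 18 were listed, with a median of 4.21, and 7 of 18 (38.9%) reached it. Eef1a1, which brings tRNA to the ribosome, was highest at 8.2, and Eef2, which drives translocation, was listed at -0.91. The order turned with the scale. As log2 CPM the medians were 7.1 for the 48 biogenesis genes and 7.19 for the 18 translation factor genes, against 6.99 for the 84. The all-gene 95th percentile was then reached by 22.9% and 22.2%, against 8.33%. The 48 genes ran from 4.55 to 9.67 log2 CPM and the 84 from 0.36 to 9.54, so the wider spread held per kb only for them. A site within 10 kb was listed for 5 of the 48 and 1 of the 18 genes.

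The 76 mitochondrial ribosomal protein genes, which make the separate ribosome of that organelle, had a median of 1.91 log2 CPM per kb (quartiles 1.29 and 3.01), and 4 of 76 (5.26%) reached the 95th percentile. As log2 CPM their median was 4.88, below the 6.99 of the cytosolic genes and the 5.27 of all genes. A site within 10 kb was listed for 5 of the 76.

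**Figure D3:**
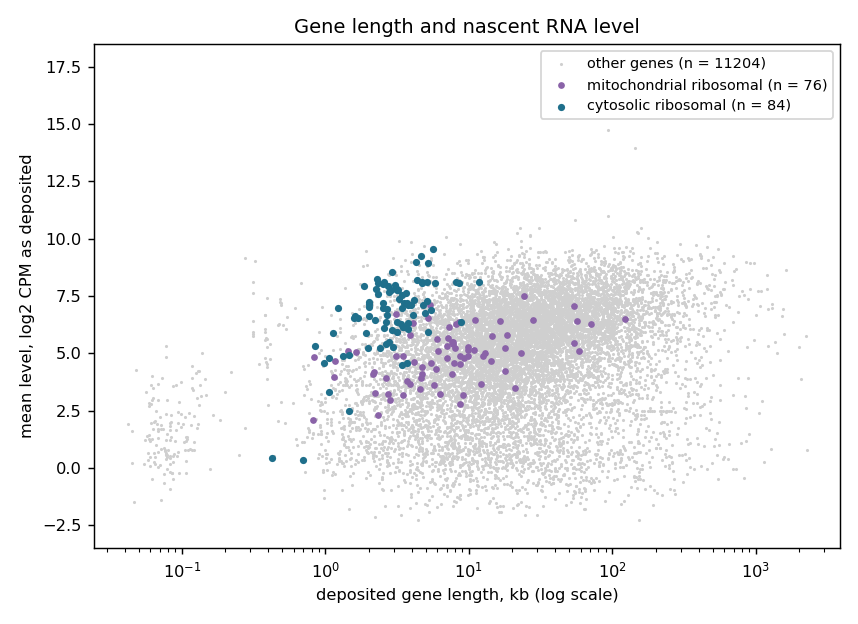
Deposited gene length in kb (x axis, log scale) and mean level in log2 CPM (y axis) for every gene of the table, with the 84 cytosolic ribosomal protein genes in blue and the 76 mitochondrial ones in purple. The blue points gather at short lengths (median 2.94 kb, against 20.99 kb for all genes) and at levels mostly above 5.27, the median of all genes.

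The genes were short. Their median length was 2937 bp, and 83 of the 84 (98.8%) were shorter than 10 kb, against 28.4% of all genes. Rps15a, at 11772 bp, was the exception. Short genes were also common among the 76 mitochondrial ribosomal protein genes (72.4%) and the 18 translation factor genes (55.6%), and less so among the 48 ribosome biogenesis genes (35.4%). As log2 CPM, which is not divided by length, 71 of the 84 genes (84.5%) were at or above the all-gene median, where all 84 were per kb.

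Many of the genes held snoRNA genes, which guide the modification of ribosomal RNA. In GENCODE M1, 29 of the 83 placed genes (34.9%, 25.6 to 45.7) held at least 1 snoRNA gene on their own strand, against 2.1% of the 11076 placed genes and 0 of the 76 mitochondrial ribosomal protein genes (upper Wilson bound 4.81%). The trait was not particular to the ribosomal protein genes. It was found in 8 of 48 ribosome biogenesis genes (16.7%) and 5 of 18 translation factor genes (27.8%, 12.5 to 50.9). The 29 ribosomal protein genes held 54 snoRNA genes in all. Rpl4 held 5 and Rpl7a held 4. The median level was 5.87 per kb for the 29 genes (3.98 to 7.05) and 4.96 for the 54 placed genes without one (0.88 to 6.90). All 29 are structural genes, while the 54 include the pseudogenes, the paralogs and Rps19bp1, with the 0.88 at Rps15a-ps4. The part of gene class in this gap was not tested.

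The gene table listed 12 of these snoRNAs as rows of their own. Per kb, 9 of the 12 were above the gene around them, most of all Snord68 in Rpl13 (8.64 against 7.0) and Snord83b in Rpl3 (8.54 against 7.05). The other 3 were below it, among them Snord72 in Rpl37 (4.15 against 5.64) and Snord42a in Rpl23a (4.68 against 4.96). The snoRNA rows are 45 to 148 bp long and lie within the gene's own span, and reads of the host intron and of the snoRNA cannot be told apart there. Division by so short a length raises the value per kb. As log2 CPM every one of these rows was below its gene (Snord68 at 4.26, Rpl13 at 8.53). The deposited 48 bp of Snord68 are also shorter than its locus in GENCODE M1 (chr8:125626938-125627023). No share over snoRNA rows outside these genes was counted.

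**Figure D4:**
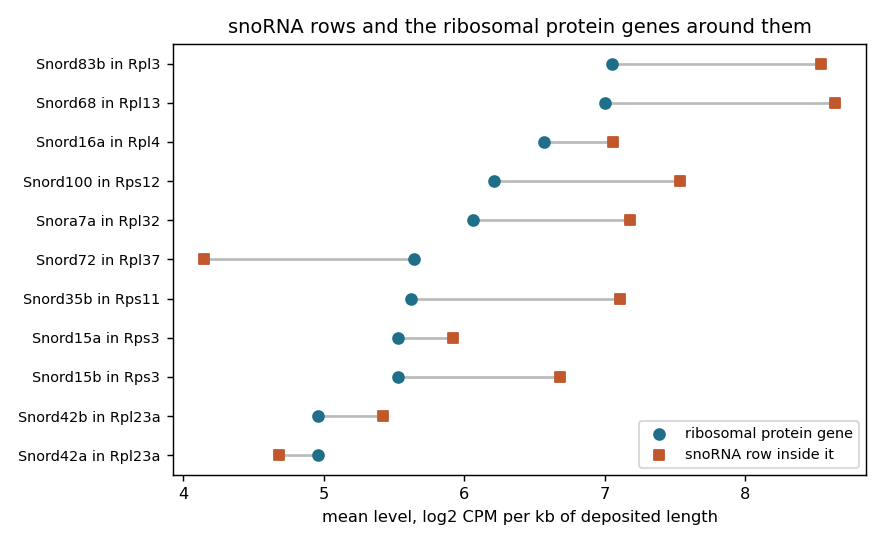
Mean level in log2 CPM per kb of deposited length (x axis) of 11 of the 12 snoRNA rows (orange squares) and of the ribosomal protein gene each lies in (blue circles), sorted by the gene. The square lies to the right of the circle in 9 of the 11 pairs and to the left for Snord72 in Rpl37 and Snord42a in Rpl23a.

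The coding sequences of these genes recur in the genome. Copies were counted as matches to NCBIM37 outside the gene at 90% identity or more over at least 80% of the coding sequence. At least 1 copy was found for 76 of the 80 genes with a coding sequence (95%, 87.8 to 98), against 21 of the 76 mitochondrial ribosomal protein genes (27.6%, 18.8 to 38.6). Copies were searched for these 2 groups only, so no share over all genes can be given. The median of the 80 genes was 9 copies, and 1043 were counted in all. With whole mRNAs as the query, 42 of the 80 genes (52.5%) had a copy, with a median of 1.5 and 555 in all. The mitochondrial genes then gave 9 of 76 (11.8%). By coding sequence Rpl21 had 80, Rpl7a 79, Rpl29 66, Rps2 54 and Rpl17 53. Rps3, Rpl8 and Rps19bp1 were among the 4 genes with no copy found. At 97% identity 68 of the 80 genes had a copy, against 10 of the 76 mitochondrial ribosomal protein genes (13.2%). The authors removed RNA reads of low mapping quality, and a read from such a stretch of exon can match several places. Its part in the levels was not tested. Across 75 structural genes the level per kb and the number of copies had a Spearman's rho of -0.04, given as a description with no test.

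The promoters were searched for words known from ribosomal protein genes in the RefSeq promoter sequences (GRCm38.p6, 250 bases before to 50 after the start), where 57 of the 77 structural names were matched to 67 promoters. A run of at least 7 pyrimidines on the gene's strand that overlapped the 10 bases on either side of the start was found in 32 of the 67 (47.8%, 36.3 to 59.5). The share was 19.3% over the 10641 promoters of genes in the gene table, 19.7% over all 32851 promoters and 16% over the 75 promoters of mitochondrial ribosomal protein genes. The promoters of Rpl31, Rplp2 and Rps23 are shown from 50 bases before to 30 after the start, because occupied sites lie at these genes and they differ in this run, which is in capitals.
Rpl31 promoter, chr1:39367801-39367880 (+ strand): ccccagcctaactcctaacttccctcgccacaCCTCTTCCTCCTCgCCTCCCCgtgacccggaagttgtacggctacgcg
Rplp2 promoter, chr7:141447601-141447680 (+ strand): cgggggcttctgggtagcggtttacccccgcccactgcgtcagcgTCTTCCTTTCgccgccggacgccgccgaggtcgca
Rps23 promoter, chr13:90923072-90923151 (+ strand): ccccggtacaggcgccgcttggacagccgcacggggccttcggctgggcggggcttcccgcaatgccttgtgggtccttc

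Rpl31 had a run of 13 pyrimidines with a second of 7 beside it, and Rplp2 had one of 10, and Rps23 had none by this rule. The longest, of 21 bases, was at Rpl7a. The ETS word CCGGAAG was found on either strand in 25 of the 67 promoters (37.3%), against 18.4% of the promoters of genes in the gene table. The YY1 word AAGATGG was found in 11 (16.4%, against 7.5%) and TATAA in 16 (23.9%, against 13.4%). Over all 32851 promoters these 3 words were found in 8.86%, 6.34% and 24.9%, so the share with TATAA was not above that of all promoters. The mitochondrial ribosomal protein promoters gave 34.7%, 17.3% and 13.3% for these 3 words. The KLF1 purine form was found in 7 promoters (10.4%, 5.15 to 20), against 27.2%, and the pyrimidine form in 28 (41.8%, 30.7 to 53.7), against 45.9%. Over all promoters the shares were 22.6% and 29.7%, so for the pyrimidine form the direction turned with the background. Alternative starts of 1 gene share sequence, so the 67 promoters are not independent.

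**Figure D5:**
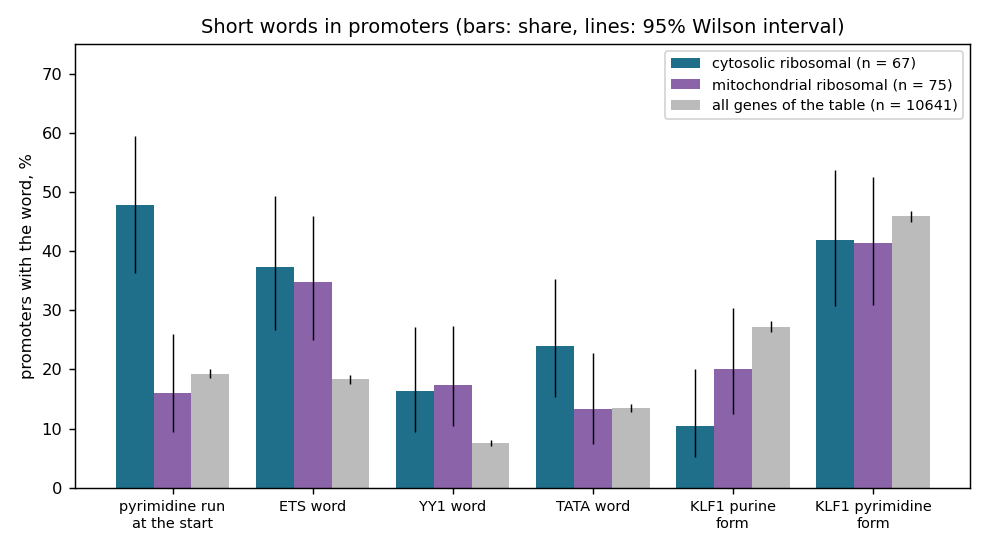
Share of promoters (y axis, percent) that hold each short word, for 67 cytosolic ribosomal protein promoters (blue), 75 mitochondrial ones (purple) and 10641 promoters of genes in the gene table (grey), with 95% Wilson intervals as lines. The pyrimidine run stands at 47.8%, 16% and 19.3%, and the KLF1 purine form at 10.4%, 20% and 27.2%.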

How the data were processed

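The authors labelled new RNA with 4sU, sequenced it on the Ion Proton platform and mapped it to mm9 with TopHat2 (version 2.0.10 in the submitters' processing notes) and TMAP, removing reads of low mapping quality. ChIP reads were mapped with TMAP, without duplicate and multi-mapped reads, and DiffBind compared a consensus set of sites. The ChIP library was made from 3 pooled replicates, per the labels. Versions of limma and DiffBind, the read counter and the gene annotation are not given in the sources used here. The paper gives other values than the labels for the 4sU dose and labelling time, and the labels were followed.

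The deposited gene tables give the authors' mean log2 CPM (voom) over all libraries of their fit and a gene length in bp. The deposited site table gives log2 concentrations for wild type and mutant with positions and closest TSS. The remaining columns hold the authors' own comparisons (log2 fold change, t, p-value, adjusted p-value, fold and FDR) and were not used. No count, and so no depth, is given, and no column holds replicates. The mutant concentration belongs to the 1 ChIP library. How many libraries stand behind the wild type concentration is not given in the sources used here. No test was run: groups of genes are described by counts, medians and 95% Wilson intervals.

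Levels were divided by deposited length on the log2 scale. Loci, exons and snoRNA genes came from GENCODE M1, sequences from NCBIM37 and promoters from RefSeq. Of the 84 members 83 were placed, 79 of them within 10% of the deposited length. Exon length merges all transcripts of a gene. Copies were found with blastn 2.17.0 (megablast, e-value 1e-10). A site was called for 1 protein at a difference of at least 2-fold. Word searches, calls and intervals were tested on simulated data. Python 3.11.15, pandas 2.3.3 and samtools 1.23.1 were used.

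Members and lists were chosen with earlier results of these data known. The members named are the 5 highest and lowest by level, those with a site, those outside the structural names, the stalk proteins, paralog pairs and the Diamond-Blackfan genes. The snoRNA, copy, identity, 95th percentile and length counts were chosen after seeing the data. Values of some members and sites are not reported here, though counts and medians include them.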

Additional observations from a re-analysis of the deposited data

How the results depend on the processing

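No paired analysis was possible because the files hold no replicate values, and for the same reason no replicate could be left out. Alternatives that moved a value were these. The share of members at or above the all-gene median was 95.2% per kb of merged exons and 84.5% as log2 CPM, and the share at or above the 95th percentile was 60.2% and 8.33%. The mutant value was higher at 11 of 17 member sites, at 2 of 6 within 1 kb of the TSS, at 6 of 11 within 10 kb and at 7 of the 12 whose closest GENCODE M1 start is the member, the last chosen after seeing the data. The wild type value was higher at 6, 4, 5 and 5 of these. Fewer sites were counted in the subsets, and the shares moved as well. The share with a higher mutant value was 64.7% over all 17, 33.3% within 1 kb and 54.5% within 10 kb. For the wild type it was 35.3%, 66.7% and 45.5%, with wide intervals. In the 100 bases before the start, 4.48% of the promoters held the purine form, 19.4% the pyrimidine form, 19.4% the ETS word, 2.99% the YY1 word and 7.46% TATAA. The same window gave 14.1%, 29.3%, 9.77%, 1.57% and 4.7% over the promoters of genes in the gene table. The copy count was tried with 4 query sequences after seeing the data. The form reported was the last tried, chosen because others took incomplete or read-through models. The other coding sequences gave 93.8% and 91.2%, and whole mRNAs 52.5%. The cause of the shifts was not tested. The remaining settings, including 4-fold differences, wider motif windows, structural members alone and a filter on log2 CPM, kept the values within the limits set for a change. With no depth, no smallest detectable difference can be given.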
